A study of Mus musculus with 14 samples.

Results

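The comparison set both mutant genotypes together against wild type, and asked which changes in RNA level the mutants shared, which differed in size between them and which ran in opposite directions. It used all 14 libraries of the series: 4 from wild type mice (WT), 5 from mice labelled PU.1[155-/155-] (PU1_KI) and 5 from mice labelled miR-155[-/-] (miR155_KO). In PU1_KI the PU.1 gene carries a mutated site for miR-155 in its 3′ UTR, so that miR-155 is present but cannot act on PU.1, and miR155_KO lacks miR-155 for every target. Both alleles are carried in the germline, so other cells of these mice had them too, and the loss of miR-155 itself was not analysed here. All 14 libraries were polyadenylated RNA of splenic B cells, negatively selected and then cultured for 96 h with 5 µg/ml of LPS and 10 ng/ml of IL-4. Age, sex and strain background were not given in the sources used here, and each library is described by the submitters as a biological replicate. The joint contrast was the mean of the PU1_KI mean and the miR155_KO mean, minus the WT mean, so that each mutant carried the same weight.

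miR-155 is a microRNA that is induced when B cells are activated, and it lowers the RNA and protein of genes whose 3′ UTR pairs with its seed. PU.1, a transcription factor of the ETS family, is abundant in myeloid cells and present at a lower level in B cells, and it is a direct target of miR-155. Pax5 maintains B cell identity, while Irf4, Prdm1 and Xbp1 drive the change to antibody-secreting plasma cells. LPS with IL-4 makes B cells divide, switch antibody class and in part become plasmablasts.

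The mature miR-155 and the site it pairs with in PU.1 are shown because both mutants lack this pairing. PU1_KI lacks it through the mutated site and miR155_KO through the missing microRNA. The seed (bases 2 to 8) of the microRNA and the matching bases of the wild type site are in capitals.
mmu-miR-155-5p: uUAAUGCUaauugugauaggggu
Spi1 3′ UTR site: ccgccggccatAGCATTAAcccgtcgcccg
The mature sequence is RefSeq's on GRCm38.p6, chr16:84714143-84714165, plus strand. The site lies in the longest 3′ UTR of the PU.1 gene in GENCODE M21 on GRCm38, chr2:91115426-91115455, plus strand, with its 8 matching bases at 91115437 to 91115444, and it is the only match to the seed in those 362 nt. The deposited table names this gene Sfpi1 and uses the older build NCBIM37, on which all gene positions below are given.

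Levels are RPKM, a read count scaled to the length of the gene and the depth of the library, and the recovered depths were 31.4 to 52.5 M reads (M for mega). Genes with at least 1 RPKM in at least 4 libraries were tested, 9627 of 22295 rows. A gene under 1 RPKM in every library of a genotype entered only through the genotypes where it was higher. Changes are differences of log2(RPKM + 0.5), which understate the change of low genes, given with their standard error (SE). A gene was called at a Benjamini-Hochberg adjusted p under 0.05 in limma. The B cell receptor chain Cd79a was high in every library, at 329 to 519.9 RPKM. On principal component 1 (66.1% of the variance) WT replicate 1 lay at -15.4 with the other WT libraries from -18.2 to -18.1, and miR155_KO replicate 5 lay at 19.8 with the other 4 from 24.2 to 27.7, so counts are also given without these 2 libraries. On component 2 (16.2%) PU1_KI replicate 1 lay at -1.93 with the other PU1_KI libraries from -16.6 to -7.71. It was left out only where 1 library at a time was left out. T cell markers summed to 56.7 to 61.6 RPKM in WT, 48.9 to 57.5 in PU1_KI and 79.1 to 87.9 in miR155_KO, most of it Thy1, while neutrophil markers summed to at most 2.23 RPKM in any library, mast cell and basophil markers to at most 0.644 and erythroid markers to at most 0.804. Sequencing pool and culture day, not given in the sources used here, cannot be told apart from genotype. In bulk RNA, fewer cells of a type and less RNA per cell cannot be told apart.

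Jointly, 4587 genes (47.6% of those tested) were called, 2646 higher (27.5%) and 1941 lower (20.2%) in the mutants. PU1_KI on its own had 2667 calls (27.7%), with 2279 higher (23.7%) and 388 lower (4.03%). miR155_KO on its own had 6017 calls (62.5%), with 2616 higher (27.2%) and 3401 lower (35.3%). A joint call alone did not make a change shared: 1611 of the 4587 genes were called the same way in each mutant, 2502 in miR155_KO only, 360 in PU1_KI only, 76 in opposite directions and 38 in neither mutant taken singly. The shared calls were 1327 genes higher in both (13.8%) and 284 lower in both (2.95%). The genes higher in both were 58.2% of those higher in PU1_KI and 50.7% of those higher in miR155_KO, and the genes lower in both were 73.2% of those lower in PU1_KI and 8.35% of those lower in miR155_KO. Both contrasts use the same 4 WT libraries, so these shares hold a common error, and counts with WT split between the mutants are given further on. All 10 mutant libraries lay above all 4 WT libraries in 1027 genes (10.7%) and below them in 246 (2.56%). Without WT replicate 1 and miR155_KO replicate 5, a choice made after seeing the data, 1003 genes were higher and 369 lower in both mutants.

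**Figure D1:**
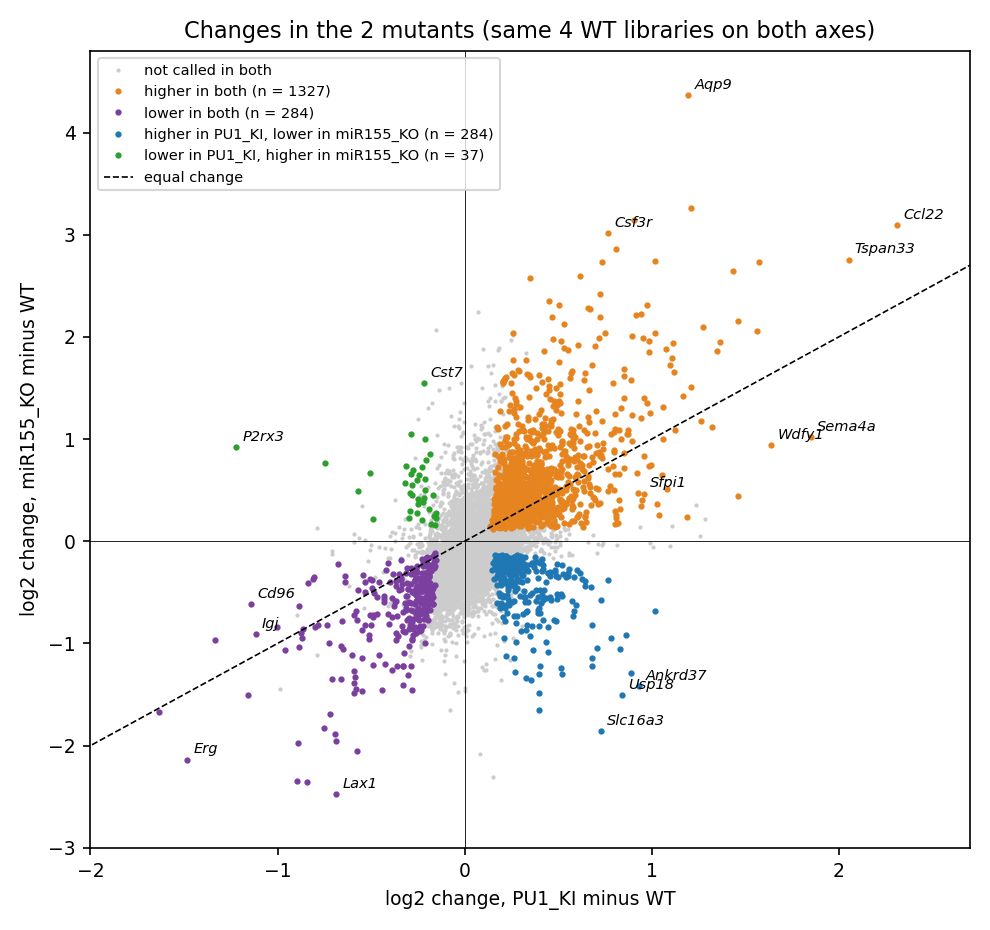
Log2 change in PU1_KI (x axis) and in miR155_KO (y axis), each minus WT, with 1 point per tested gene, coloured where the gene was called in both mutants; the dashed line marks equal changes. Most of the 1327 genes higher in both lie above the line, while the 284 genes higher in PU1_KI and lower in miR155_KO lie in the lower right part.

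The shared rises with the greatest joint size were in a chemokine, in surface proteins of activated B cells and myeloid cells, and in genes of metabolism and stress. Ccl22 (ENSMUSG00000031779, chromosome 8 from 97269490 to 97275599 on the plus strand) encodes a chemokine that attracts T cells bearing CCR4. Its RPKM was 29.8, 37.4, 33.6 and 43.7 in the WT libraries, 163, 169, 162, 199.9 and 209 in the PU1_KI libraries and 301, 264, 301, 273 and 429 in the miR155_KO libraries. Every mutant library held more than 3 times the RPKM of any WT library, and every miR155_KO library lay above every PU1_KI library. The joint log2 change of Ccl22 was 2.702 ± 0.11 (SE; limma adjusted p = 5.4e-13), made up of 2.31 in PU1_KI and 3.09 in miR155_KO.

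Tspan33 (ENSMUSG00000001763, chromosome 6 from 29644222 to 29668559 on the plus strand), a tetraspanin found on activated B cells, was under 1 RPKM in all 4 WT libraries (0.955, 0.869, 0.908 and 0.761). It reached 4.99, 4.97, 4.33, 5.60 and 6.22 RPKM in PU1_KI and 9.35, 7.86, 9.20, 9.001 and 8.45 RPKM in miR155_KO. No library of one genotype overlapped another, and the joint log2 change was 2.40 ± 0.071 (adjusted p = 7.8e-15). Cd300lf (ENSMUSG00000047798, chromosome 11 from 114977528 to 114995306 on the minus strand), an inhibitory receptor best known from myeloid cells, held 2.47, 3.05, 2.87 and 3.24 RPKM in WT. In PU1_KI it held 9.08, 9.35, 9.13, 9.91 and 10.6 RPKM and in miR155_KO 22.5, 21.1, 22.3, 22.6 and 21.6 RPKM. Again the 3 genotypes formed separate steps, with a joint log2 change of 2.15 ± 0.057 (adjusted p = 2.1e-15). Lrrc25, a membrane protein with leucine-rich repeats, showed the same steps at 1.87 ± 0.200, 6.05 ± 0.646 and 10.0 ± 0.688 RPKM (mean ± SD; n = 4, 5 and 5 here and below). Car2, a carbonic anhydrase, did so as well, at 3.78 ± 0.850, 12.1 ± 1.90 and 17.1 ± 0.869 RPKM, with joint log2 changes of 1.81 for Lrrc25 and 1.81 for Car2.

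Of the 24 genes with the largest shared changes, 15 had a promoter window in RefSeq's table. A match to the PU.1-type motif GAGGAAGT was found in Cd300lf among the rises and in Ptgs1 among the falls. The Cd300lf window is shown for the place of the motif, in capitals, which starts at the first transcribed base (RefSeq, GRCm38.p6, chr11:115133943-115134242, minus strand, 250 bases before the start to 50 after it).
Cd300lf promoter: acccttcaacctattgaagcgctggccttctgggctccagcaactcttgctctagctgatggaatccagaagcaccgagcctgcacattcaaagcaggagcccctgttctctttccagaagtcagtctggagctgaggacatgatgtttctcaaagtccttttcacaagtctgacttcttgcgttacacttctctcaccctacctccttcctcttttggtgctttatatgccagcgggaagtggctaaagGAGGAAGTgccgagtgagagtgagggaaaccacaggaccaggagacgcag
Both strands were searched, and a match is a description of letters, not a site of binding. This motif was in 3.94% of the promoter windows of genes higher in both (51 of 1294), in 2.76% of those lower in both, in 3.36% of all tested windows (298 of 8864) and in 3.20% of all windows in the table. These shares count windows, of which a gene can have several, and 6975 of the 9627 tested rows had one.

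In all 12 of the largest shared rises, the 5 above included, the change was smaller in PU1_KI than in miR155_KO, by a called difference in each. Aqp9, a channel for water and glycerol, had the greatest joint log2 change of all (2.78 ± 0.085). It was nearly absent from WT (0.0878, 0.133, 0.0758 and 0.192 RPKM), low in PU1_KI (0.948, 0.672, 0.975, 1.10 and 0.943 RPKM) and at 12.9, 11.4, 14.9, 12.3 and 10.4 RPKM in miR155_KO. Aqp9 thus passed the filter only through mutant libraries. Cox6a2, the muscle form of a cytochrome oxidase subunit, held 2.94 ± 0.622 RPKM in WT and 7.44 ± 1.39 in PU1_KI, and 32.5 ± 4.94 in miR155_KO. In both genes, chosen for no overlap with WT, every miR155_KO library lay above every PU1_KI library.

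**Figure D2:**
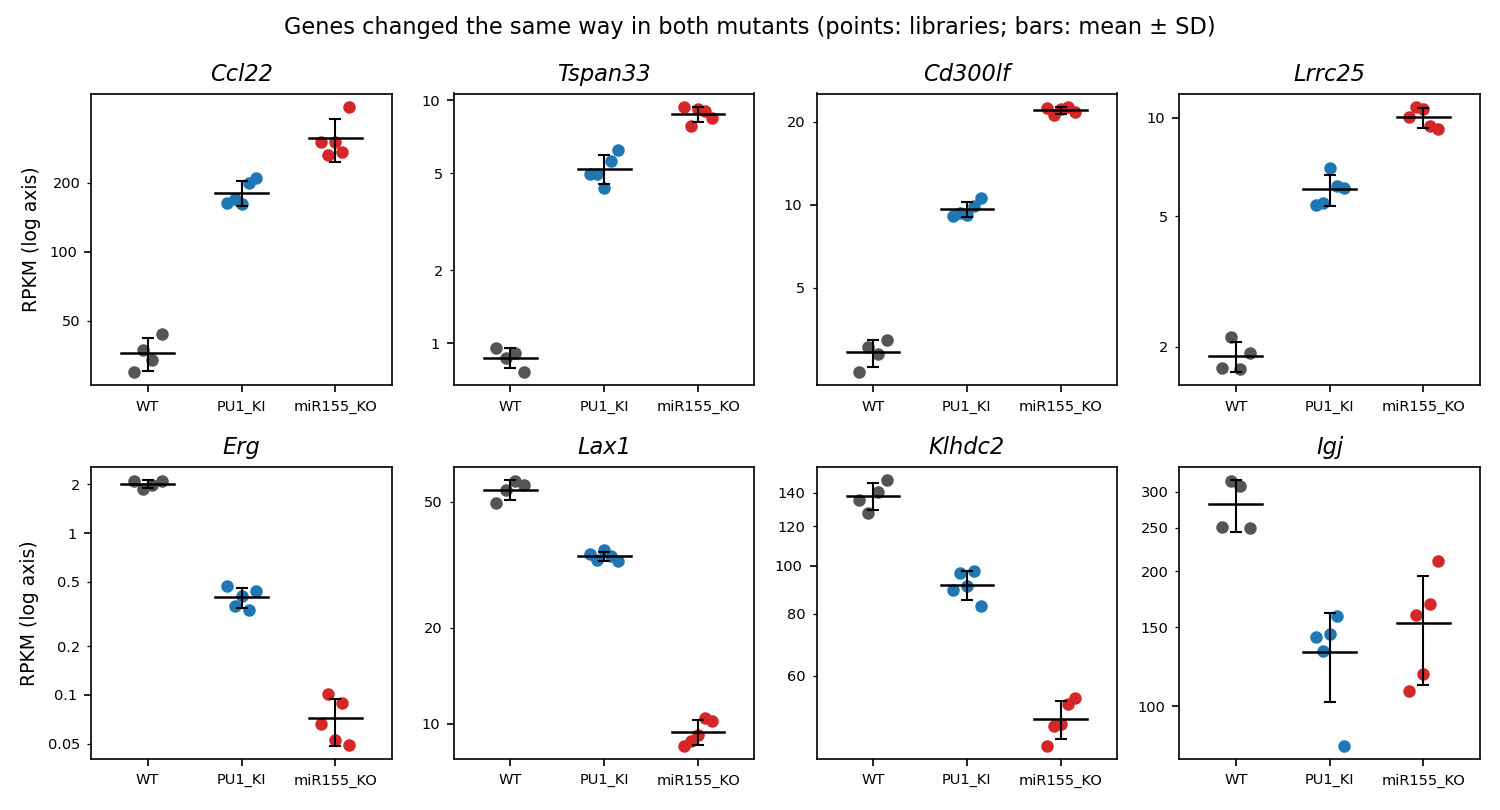
RPKM on a log axis in each of the 14 libraries for 4 genes higher in both mutants (Ccl22, Tspan33, Cd300lf, Lrrc25) and 4 lower in both (Erg, Lax1, Klhdc2, Igj); points are libraries and lines are genotype means with bars of ± SD. For Igj the PU1_KI and miR155_KO points overlap, while for the other 7 genes the 3 genotypes form separate steps.

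Among the shared falls, Erg (ENSMUSG00000040732, chromosome 16 from 95580776 to 95808200 on the minus strand), an ETS family transcription factor like PU.1, had the greatest joint size. WT libraries held 2.08, 1.88, 1.98 and 2.11 RPKM, PU1_KI libraries 0.468, 0.356, 0.406, 0.335 and 0.435 RPKM and miR155_KO libraries 0.0657, 0.102, 0.0527, 0.0890 and 0.0492 RPKM. The joint log2 change was -1.81 ± 0.06 (adjusted p = 2.8e-14), although every mutant library was under 1 RPKM, where the added 0.5 shrinks a change. Erg thus passed the filter only through the WT libraries, where it was high. Lax1 (ENSMUSG00000051998, chromosome 1 from 135575606 to 135586685 on the minus strand), an adaptor that restrains antigen receptor signals in lymphocytes, was far more abundant. It held 49.3, 54.4, 58.2 and 56.3 RPKM (WT), 34.1, 32.7, 35.2, 33.7 and 32.5 (PU1_KI) and 8.53, 8.78, 9.18, 10.4 and 10.2 (miR155_KO). Its fall was small and tight in PU1_KI (log2 change -0.69 ± 0.064) and large in miR155_KO (-2.48 ± 0.064).

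Klhdc2 (ENSMUSG00000020978, chromosome 12 from 70397709 to 70411674 on the plus strand), a substrate receptor of a ubiquitin ligase, was the most abundant of the 12 genes with the largest shared falls. It went from 136, 128, 140.4 and 148 RPKM in WT to 89.1, 96.6, 90.8, 97.5 and 82.8 in PU1_KI and 43.5, 47.5, 48.1, 52.7 and 54.2 in miR155_KO, a joint log2 change of -1.04 ± 0.062 (adjusted p = 9.8e-11). Lrrc32, which holds latent TGF-beta at the cell surface, stood at 5.16 ± 0.339 RPKM in WT, against 2.66 ± 0.283 in PU1_KI and 0.605 ± 0.0932 in miR155_KO. Il2rb, the shared beta chain of the IL-2 and IL-15 receptors, fell from 4.19 ± 0.395 to 2.40 ± 0.201 and 0.766 ± 0.110 RPKM. Tnf, the inflammatory cytokine, fell from 7.14 ± 0.850 to 4.60 ± 0.304 and 1.37 ± 0.484 RPKM. Also among the 12 were Egfl7, a secreted factor whose gene hosts another microRNA, with a joint log2 change of -1.33, Ptgs1 (cyclooxygenase 1) with -1.21, Pde2a (a phosphodiesterase of cyclic nucleotides) with -1.03 and Hemgn (a nuclear protein of blood cells) with -1.43. The other 2, A630091E08Rik (-1.29) and A530088E08Rik (-1.01), have no role given here, and A530088E08Rik, whose replicates 1 and 2 lay above replicates 3 to 5 in both mutants, was called in both mutants in 4 of the 6 ways of splitting WT, against 6 of 6 for each of the other 23 genes named for size.

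The regulators of B cell fate were tested a second time by exact two-sided permutation of the 14 libraries, 4 against 10, over every such division. Each exact permutation p below is unadjusted unless named adjusted. Adjusted over the 8 genes, the permutation p was 0.0020 for Sfpi1, Irf4, Xbp1 and Igj and 0.0048 for Bcl6. It was 0.018 for Prdm1 and Bach2 and 0.135 for Pax5. Sfpi1, the gene of PU.1 itself (ENSMUSG00000002111, chromosome 2 from 90922547 to 90955913 on the plus strand), was higher in every mutant library than in any WT library. Its levels were 11.99 ± 1.54 RPKM in WT and 23.7 ± 2.04 in PU1_KI, and 16.7 ± 1.11 in miR155_KO, a joint log2 change of 0.71 (exact permutation p = 0.000999, the smallest possible; adjusted p = 0.0020). PU1_KI held the larger rise, with miR155_KO at a log2 difference of -0.49 ± 0.076 from it (limma adjusted p = 1.9e-05). Irf4, which drives plasma cell differentiation, also rose in both, and there the order of the mutants was the reverse: 37.9 ± 1.98 RPKM (WT), 49.5 ± 5.61 (PU1_KI) and 60.1 ± 3.45 (miR155_KO). The joint log2 change of Irf4 was 0.52 (exact permutation p = 0.000999).

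Igj, the J chain that joins secreted IgM and IgA, and Xbp1, the factor behind a large secretory apparatus, fell in both mutants by amounts that could not be told apart. Igj (ENSMUSG00000067149, chromosome 5 from 88949537 to 88956916 on the minus strand) was 250.5, 318, 309 and 249 RPKM in the WT libraries, 142, 132, 145, 159 and 81.8 in PU1_KI and 108, 159.7, 118, 169 and 211 in miR155_KO. All 10 mutant libraries lay below the lowest WT library, and the mutants overlapped each other. The joint log2 change was -1.01 ± 0.16 (exact permutation p = 0.000999), and the 95% interval of the difference between the mutants ran from -0.15 to 0.56. For Xbp1 the levels were 134 ± 6.78, 106 ± 10.5 and 107 ± 9.75 RPKM, the joint log2 change was -0.34 ± 0.067, and the interval of the difference ran from -0.12 to 0.18. With median-of-ratios scaling (1 factor per library, set so that the median gene keeps its level), the mutants did differ in Xbp1, with miR155_KO higher by 0.17 (adjusted p = 0.011).

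Bcl6, on which germinal centres depend, fell in steps from 8.56 ± 0.599 to 6.82 ± 0.522 and 4.79 ± 0.189 RPKM (joint log2 change -0.54, exact permutation p = 0.0030). Prdm1, which encodes Blimp-1 and commits cells to the plasma cell fate, had a joint log2 change of -0.38 (exact permutation p = 0.0150), with 5.86 ± 0.280 RPKM in WT, against 4.62 ± 0.787 in PU1_KI and 4.30 ± 0.988 in miR155_KO. Its change passed limma's test in miR155_KO (-0.43) and just missed it in PU1_KI (-0.33, adjusted p = 0.054). It passed in PU1_KI under 7 alternatives, among them median-of-ratios scaling (-0.41, adjusted p = 0.014) and the fit without both libraries that lie apart (-0.35, adjusted p = 0.023). Bach2, which represses plasma cell differentiation, had 4.70 ± 0.182, 6.29 ± 0.315 and 5.04 ± 0.302 RPKM, and its joint change of 0.24 (exact permutation p = 0.0160) came with a level higher in PU1_KI than in miR155_KO (log2 difference -0.29, miR155_KO minus PU1_KI, adjusted p = 8.5e-05). Its change in miR155_KO alone was not called as deposited, but was with median-of-ratios scaling (0.14, limma adjusted p = 0.028) and with the replicate block (0.11, limma adjusted p = 0.041). The joint change of Pax5 did not pass by permutation (log2 difference 0.14, exact permutation p = 0.135), at 35.8 ± 2.42, 43.7 ± 3.70 and 35.8 ± 0.419 RPKM. In limma its change in miR155_KO alone was not called, while the difference between the mutants was, with PU1_KI higher. With quantile normalization the change in miR155_KO was called (0.13, limma adjusted p = 0.014) and the difference was not (-0.08, limma adjusted p = 0.12). limma called Pax5 jointly at adjusted p = 0.0389, a call that ended without WT replicate 1 (adjusted p = 0.184) and without 7 other libraries taken singly.

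Gene lists were read by how many of their tested members were called the same way in each mutant, against 13.8% of all tested genes higher in both and 2.95% lower in both. Under median-of-ratios scaling 1204 of the 9627 tested genes were higher and 1072 lower in both, against 1327 and 284 as deposited. List counts under that scaling are to be read against that background. Of 28 tested genes induced by LPS and NF-κB, 17 were higher and 1, Tnf, was lower in both mutants, with a median joint log2 change of 0.42 against 0.02 over all tested genes. Il6, a cytokine that promotes plasma cells, rose from 3.32 ± 0.299 RPKM to 7.29 ± 1.19 in PU1_KI and 15.3 ± 1.98 in miR155_KO. Cd80, which costimulates T cells, rose from 4.54 ± 0.508 to 10.3 ± 0.848 and 16.1 ± 1.19 RPKM. The inhibitors of NF-κB Nfkbia and Tnfaip3, its subunits Rel, Relb and Nfkb2, and the survival genes Bcl2a1b and Bcl2a1d were higher in both, with Bcl2a1b at 75.7 ± 3.95, 151 ± 13.4 and 181 ± 4.85 RPKM in WT, PU1_KI and miR155_KO. Bcl2a1a, Bcl2a1b and Bcl2a1d are near-identical copies, between which counting can split reads. The count for this list was 17 and 1 under both other scalings.

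Of 11 tested chemokines and migration receptors, 7 were higher in both mutants, with medians of 0.46 in PU1_KI and 0.58 in miR155_KO. Besides Ccl22 these were Ccl5, another chemokine of T cells (16.8 ± 4.04, 45.4 ± 3.60 and 106 ± 14.5 RPKM), and receptors that place B cells within lymphoid tissue: Ccr7, Cxcr4, Cxcr5, Gpr183 and S1pr3. Ccr7, which leads cells to the T zone, went from 17.8 ± 1.93 to 32.5 ± 2.99 and 58.2 ± 5.20 RPKM. Cxcr5, which leads cells to follicles, went from 41.6 ± 2.86 to 57.6 ± 6.93 and 58.6 ± 2.63 RPKM, and the mutants did not differ detectably in it (difference 0.03, 95% interval -0.12 to 0.18). The exception in the list was Ccr6, higher in PU1_KI and lower in miR155_KO, at 4.09 ± 0.298, 5.53 ± 0.296 and 2.38 ± 0.208 RPKM. Ccr7, Ccl22 and Fscn1 are also known from dendritic cells: the 12 dendritic cell markers summed to 96.1 to 143 RPKM in WT, 157 to 197 in PU1_KI and 140.0 to 159 in miR155_KO, of which Bst2 made up the most and whose part in these changes was not tested. Of these 12 markers 6 passed the filter. Ccr7, Flt3 and Fscn1 were higher in both mutants, with mean RPKM of Flt3 at 15.8 in WT, 26.0 in PU1_KI and 22.9 in miR155_KO. Zbtb46 was higher in miR155_KO, while Bst2 and Batf3 were higher in PU1_KI and lower in miR155_KO. The 6 below the filter, Itgax, Xcr1, Clec9a, Siglech, Cd209a and Clec10a, had means of at most 0.034 RPKM in every genotype.

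Of 15 tested genes of the response to IL-4 and STAT6, 9 were higher and 1, Xbp1, lower in both. They included Cish and Socs3, inhibitors of cytokine signals, with Cish at 19.7 ± 1.72, 29.3 ± 2.45 and 41.1 ± 1.97 RPKM, and Fcer2a, the low-affinity IgE receptor, at 299 ± 16.7, 375 ± 43.2 and 391 ± 40.5 RPKM. Under median-of-ratios scaling 7 were higher and 2 lower in both. Of 23 tested genes associated with PU.1, 9 were higher in both, and 6 were higher in PU1_KI and lower in miR155_KO. Among the 9 were Sfpi1, the signalling chains Tyrobp and Fcer1g, the cytokine receptors Csf3r and Csf2rb, and Ncf1 and Cybb of the phagocyte oxidase. Csf2rb rose from 3.14 ± 0.212 to 5.43 ± 0.429 and 8.34 ± 0.882 RPKM. The 6 others were Fcgr2b, Cd68, Itgb2, Ctss, Blnk and Mpeg1, with Fcgr2b, the inhibitory receptor for IgG, at 20.6 ± 1.70, 32.0 ± 2.54 and 15.9 ± 1.53 RPKM. The 18 macrophage markers, 6 of which are in the list, summed to 15.8 to 19.3 RPKM in WT, 20.3 to 23.7 in PU1_KI and 13.7 to 19.1 in miR155_KO, with C1qa and Vsig4 at 0 in every library; their part in these changes was not tested.

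Some stress genes were also higher in both. Of 23 tested p53 targets 8 were higher in both, and of 26 genes of the unfolded protein response 7 were higher and 1 lower in both. Pmaip1, which encodes the death protein Noxa, held 10.7, 9.89, 10.4 and 11.9 RPKM (WT), 19.4, 22.3, 21.5, 25.1 and 23.3 (PU1_KI) and 76.5, 69.9, 79.9, 74.7 and 73.6 (miR155_KO). The PU1_KI libraries stood above WT without overlap, and the miR155_KO libraries stood far above both. Cdkn1a, the p21 inhibitor of the cell cycle, rose from 11.6 ± 1.36 to 16.1 ± 1.54 and 31.1 ± 2.85 RPKM. In the unfolded protein response the rises included genes of the ATF4 branch: Nupr1 (1.04 ± 0.185, 2.38 ± 0.335 and 13.1 ± 1.38 RPKM), Trib3 (2.68 ± 0.253, 4.56 ± 0.681 and 14.998 ± 1.08) and Asns, which makes asparagine (14.95 ± 0.717, 24.4 ± 3.33 and 50.5 ± 2.46). The single fall was Dnajb9, a chaperone induced by Xbp1 (9.07 ± 0.519, 7.51 ± 0.790 and 6.47 ± 0.265). The median joint log2 change over the unfolded protein response list was 0.01, beside 0.02 over all tested genes, and in miR155_KO 9 of its members were higher and 8 lower. Under median-of-ratios scaling 5 p53 targets were higher and 2 lower in both, and 7 genes of the unfolded protein response were higher and 5 lower. The background under that scaling was 1204 higher and 1072 lower of all 9627 tested genes.

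Falls prevailed in 3 lists. Of 24 tested genes of the plasma cell programme, 6 were lower in both (Igj, Xbp1, Ell2, Fkbp11, Txndc5 and Eaf2) and 3 were higher (Irf4, Cd93 and Zbtb20). Txndc5, a protein disulfide isomerase, fell from 80.0 ± 6.02 to 53.7 ± 7.11 and 47.0 ± 7.92 RPKM. Of 33 genes of the G1/S transition and DNA replication, 7 were lower in both, among them the replication clamp Pcna (95.8 ± 3.93, 82.5 ± 6.10 and 56.4 ± 5.32 RPKM), and 2 were higher, Ccnd2 and Cdk6, which act in G1. Ccnd2 went from 61.9 ± 3.69 to 101 ± 12.1 and 129.9 ± 4.74 RPKM. Of 21 immediate early genes 4 were lower in both (Fos, Fosb, Dusp1 and Dusp5) and 2 higher (Ier3 and Nr4a1). Fos fell from 44.0 ± 16.4 to 27.1 ± 10.97 and 10.6 ± 2.82 RPKM. In no immediate early gene did all 10 mutant libraries lie below all 4 WT libraries. With the replicate block 2 immediate early genes were lower and 1 higher in both, while 397 of all tested genes were lower in both. Under median-of-ratios scaling the plasma cell count was 10 lower and 2 higher, the G1/S count 16 lower and 2 higher, and the immediate early count 7 lower and 1 higher. Over all 9627 tested genes the number lower in both rose from 284 to 1072 under that scaling. The larger list counts therefore do not by themselves show a stronger fall of these lists.

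**Figure D3:**
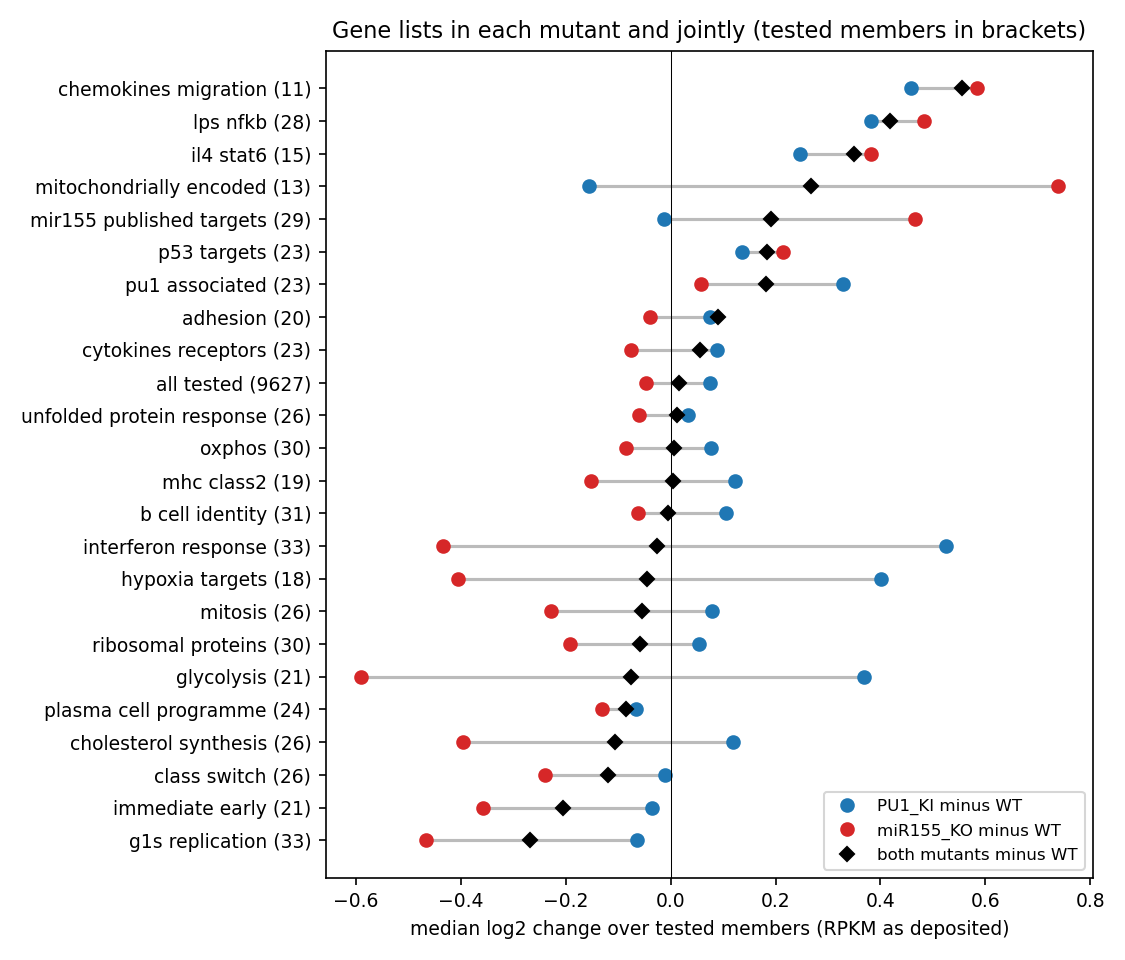
Median log2 change over the tested members of each gene list, in PU1_KI, in miR155_KO and jointly, with RPKM as deposited and the number of tested members in brackets. The chemokine, LPS and IL-4 lists have all 3 medians above 0, while the interferon, glycolysis and hypoxia lists have PU1_KI and miR155_KO medians on opposite sides of 0 and joint medians near it.

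The changes were of unequal size in the mutants. Taken directly, without WT, 6192 genes (64.3%) differed between them, 1725 higher (17.9%) and 4467 lower (46.4%) in miR155_KO. Of the 480 genes with a joint change of at least 1.5-fold (379 higher, 3.94%, and 101 lower, 1.05%), the median ratio of the miR155_KO log2 change to the PU1_KI log2 change was 2.28, with quartiles at 1.34 and 3.70. In 371 of the 480 the changes had the same sign and were larger in miR155_KO by a called difference between the mutants, and in 27 the change was larger in PU1_KI. In 14 of the 480 the changes in the 2 mutants had opposite signs. The median ratio was 2.29 for joint rises and 2.27 for joint falls. With WT split so that the mutants shared no library, the median ratio over the same 480 genes ran from 2.00 to 2.49. Those genes were chosen with all 4 WT libraries and not chosen again in each split, so the choice still rests on the shared WT.

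A stricter set of 164 genes changed the same way by at least 1.5-fold in each mutant, 129 higher and 35 lower. In 103 of them miR155_KO had the larger change by a called difference, in 8 PU1_KI had, and 53 were not called between the mutants. For 83 of the 164 the 95% interval of the difference lay within 1.5-fold either way. At the top of the ratio were Csf3r, the receptor of G-CSF (3.93), Lilrb4, an inhibitory receptor of the immunoglobulin family (3.71), the water and glycerol channel Aqp9 (3.65), Lax1 (3.60) and Irg1, which makes itaconate (3.52). The WT means of Csf3r, Aqp9 and Irg1 were only 0.777, 0.122 and 0.228 RPKM. At such levels the constant added to RPKM before the log shrinks the PU1_KI change more than the larger miR155_KO change. The ratios of Csf3r, Aqp9 and Irg1 are therefore raised by that constant. Lax1, with a WT mean of 54.6 RPKM, is hardly affected. Csf3r held 0.763, 0.851, 0.826 and 0.669 RPKM in WT, against 1.51, 1.75, 1.64, 1.46 and 2.03 in PU1_KI and 9.38, 9.46, 9.67, 9.95 and 10.6 in miR155_KO, so that the PU1_KI libraries were separate from WT but much nearer to it.

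At the other end were genes that changed more in PU1_KI: Cd96, a surface receptor best known from T and NK cells (ratio 0.536), the semaphorin Sema4a (0.552), Wdfy1, an endosomal adaptor (0.573), Fam70a (0.618) and Sepp1, the selenium carrier selenoprotein P (0.718). Sema4a held 1.81, 2.599, 2.29 and 2.26 RPKM in WT and 8.26, 9.37, 9.76, 9.79 and 9.57 in PU1_KI, and 5.46, 5.22, 5.05, 4.76 and 4.73 in miR155_KO. Wdfy1 held 3.46, 3.17, 3.37 and 3.19 RPKM (WT), 10.1, 11.7, 11.5, 11.4 and 11.97 (PU1_KI) and 6.84, 6.77, 6.74, 7.16 and 6.38 (miR155_KO). In both genes the order was WT, miR155_KO, PU1_KI, with no overlap. Cd96 fell from 3.28 ± 0.274 RPKM to 1.22 ± 0.241 in PU1_KI and 1.97 ± 0.0902 in miR155_KO, the reverse order of most shared falls. The mutants differed in all 5 (limma adjusted p from 1.5e-09 for Wdfy1 to 0.00606 for Sepp1). These 5 were chosen in the same libraries for low ratios and no overlap with WT, which largely set both outcomes.

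Closest to equal were Ier3, an early response gene, Gypc (glycophorin C), Slc26a10 of an anion transporter family, Ebi3, a subunit of IL-27 and IL-35, and the ephrin receptor Epha2, with ratios from 0.938 for Epha2 to 1.07 for Ebi3. They were chosen for the smallest differences between the mutants and for no overlap with WT. Their closeness and their separation from WT were thus set by the choice. Ebi3 held 50.6, 66.3, 65.8 and 57.6 RPKM in WT, against 78.4, 84.8, 101, 102 and 88.4 in PU1_KI and 95.2, 96.1, 92.5, 85.1 and 95.7 in miR155_KO. The mutants overlapped while both stood above WT, and the 95% interval of their log2 difference was -0.13 to 0.21. That difference was called under both other scalings, with miR155_KO higher by 0.18 (median-of-ratios, adjusted p = 0.019) and 0.24 (quantile, adjusted p = 0.0018). For Epha2 the interval was -0.21 to 0.12, at 3.35 ± 0.501, 5.56 ± 0.615 and 5.37 ± 0.211 RPKM. Slc26a10 had the widest interval of the 5, -0.39 to 0.32, and its replicates 1 and 2 lay above replicates 3 to 5 in both mutants. It passed the filter only through WT, with every mutant library under 1 RPKM.

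Most opposite changes did not appear in the joint contrast. There were 321 genes called in both mutants in opposite directions, 284 higher in PU1_KI and lower in miR155_KO (2.95%) and 37 the other way (0.384%), and 245 of the 321 were not called jointly. Usp18 (ENSMUSG00000030107, chromosome 6 from 121195924 to 121220934 on the plus strand), which removes ISG15 from proteins and damps interferon signals, held 10.3, 11.9, 12.02 and 11.3 RPKM in WT. It held 19.8, 21.1, 19.1, 21.2 and 22.6 RPKM in PU1_KI and 3.94, 3.57, 3.96, 3.75 and 3.26 RPKM in miR155_KO, so that WT lay between the mutants with no overlap. Slc16a3, a lactate exporter, did the same at 5.86 ± 0.973, 9.97 ± 0.754 and 1.24 ± 0.166 RPKM in WT, PU1_KI and miR155_KO. Ankrd37, a gene induced by hypoxia, was at 4.64 ± 0.199, 9.34 ± 1.00 and 1.44 ± 0.319 RPKM, and 1110032F04Rik at 6.17 ± 0.659, 11.9 ± 1.11 and 2.23 ± 0.209 RPKM. The joint log2 changes of these 4 were between -0.57 and -0.20, while the direct differences between the mutants were between -2.59 and -2.18.

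With RPKM as deposited, the interferon, glycolysis and hypoxia lists held the greatest shares of opposite genes among lists with at least 10 tested genes. The 6 of 23 genes associated with PU.1 described above came next. The background was 2.95% of all tested genes higher in PU1_KI and lower in miR155_KO, and 0.384% the other way. Of 33 tested interferon response genes, 29 were higher in PU1_KI, 20 were lower in miR155_KO and 17 were both, with medians of 0.53 and -0.43 and a joint median of -0.03. Mx1, an antiviral GTPase, held 5.16 ± 0.171 RPKM in WT and 6.97 ± 0.606 in PU1_KI, and 1.30 ± 0.0906 in miR155_KO. Only 4 of the 33, Oasl1, Ifit1, Xaf1 and Ifih1, were higher in both, with Oasl1 at 20.3 ± 1.49, 38.3 ± 3.97 and 40.6 ± 4.83 RPKM. Of 21 glycolysis genes 11 were higher in PU1_KI and lower in miR155_KO, such as the hexokinase Hk2 (10.0 ± 0.791, 12.8 ± 0.918 and 6.50 ± 0.443 RPKM) and Pfkl, of phosphofructokinase (24.5 ± 2.64, 31.3 ± 1.70 and 9.39 ± 2.37). Of 18 hypoxia targets 9 were higher in PU1_KI and lower in miR155_KO, Hif1a was the other way, and 4 were higher in both: Vegfa, Adm, Ddit4 and Mxi1. Vegfa, which promotes vessel growth, rose from 9.43 ± 0.556 to 16.8 ± 1.83 and 28.6 ± 0.720 RPKM. The interferon-type motif GAAANNGAAA, searched on both strands, was in 8.63% of the promoter windows of genes higher in PU1_KI and lower in miR155_KO (22 of 255), in 3.25% of those of genes higher in both (42 of 1294) and in 3.22% of all tested windows, again as a description of letters. Under median-of-ratios scaling 16 interferon, 9 glycolysis and 10 hypoxia genes were opposite. So were 6 of 13 transcripts encoded by the mitochondrial genome, against 2 as deposited. Of all 9627 tested genes, 201 were under that scaling higher in PU1_KI and lower in miR155_KO, and 162 the other way.

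In the rarer direction, lower in PU1_KI and higher in miR155_KO, the largest direct differences were in P2rx3, an ATP-gated channel, Cst7, the protease inhibitor cystatin F, 8430427H17Rik and 2810407C02Rik. P2rx3 held 6.18, 4.41, 5.43 and 6.13 RPKM (WT), 2.51, 2.03, 1.91, 2.41 and 1.59 (PU1_KI) and 11.4, 9.55, 9.70, 9.43 and 15.1 (miR155_KO). WT again lay between the mutants without overlap. Cst7 had 17.2 ± 0.514, 14.8 ± 1.23 and 51.2 ± 3.52 RPKM and was called jointly as higher (0.67) although it was lower in PU1_KI (-0.22, adjusted p = 0.0183). The gene of a hypoxia regulator that is a published miR-155 target, Hif1a, was among these 37 genes, at 10.3 ± 0.371, 8.76 ± 0.357 and 13.99 ± 0.872 RPKM.

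The share of genes with a match to the miR-155 seed ran from 2.89% to 35.3% over these classes, and in the shared classes it was close to that of all tested genes. In the longest 3′ UTR of each gene (GENCODE M21), the 7-base match AGCATTA was in 9.20% of tested genes (863 of 9385), 9.09% of those higher in both (119 of 1309) and 9.59% of those lower in both (26 of 271). It was in 22.1% of genes higher in miR155_KO only (269 of 1218) and in 35.3% of those lower in PU1_KI and higher in miR155_KO (12 of 34). It was in 2.89% of genes higher in PU1_KI and lower in miR155_KO (8 of 277). These are descriptions with no test. The 3′ UTRs differed in length too, with medians of 1146 nt for all tested genes, 1313 for those higher in both, 1214 for those lower in both, 1527.5 for those higher in miR155_KO only and 2331 for those lower in PU1_KI and higher in miR155_KO. Per kb of 3′ UTR the matches in these 5 sets, in the same order, were 0.065, 0.060, 0.070, 0.123 and 0.165. Among the shared genes with a match were Pmaip1, with 2 in 2192 nt, Jarid2, a chromatin protein and published miR-155 target (4.44 ± 0.197, 5.55 ± 0.245 and 15.1 ± 0.609 RPKM), with 2 in 1691 nt, and Cd93.

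**Figure D4:**
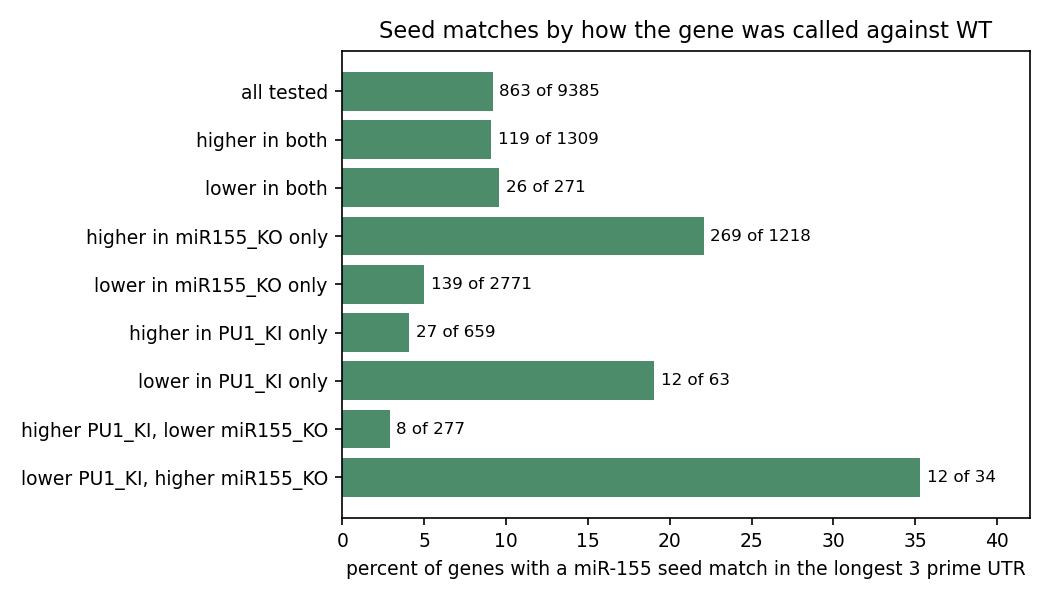
Percent of genes whose longest 3′ UTR holds the 7-base seed match, by how the gene was called against WT, with the counts beside each bar. The bars of genes higher in both (119 of 1309) and lower in both (26 of 271) are near that of all tested genes (863 of 9385), and the longest bar is that of genes lower in PU1_KI and higher in miR155_KO (12 of 34).

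The shared calls depend on the WT libraries they share and on how libraries are scaled. With 2 WT libraries set against PU1_KI and the other 2 against miR155_KO, in each of the 6 possible ways, 638 to 1017 genes were higher in both and 134 to 171 were lower in both. In all 6 ways 506 genes were higher and 85 lower in both. The number higher was greatest (1017, 882 and 876) where WT replicate 1 was in the pair for PU1_KI. For genes higher in PU1_KI and lower in miR155_KO the range was 77 to 338, with 67 in all 6, and for the other direction 15 to 22, with 9 in all 6. Each such test has fewer libraries than the test on all 14.

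The median log2 change over all tested genes was 0.08 in PU1_KI and -0.05 in miR155_KO with RPKM as deposited, so the direct difference was centred at -0.13; median-of-ratios scaling moved it to -0.00033. With that scaling 1204 genes were higher and 1072 lower in both mutants, 52.9% higher against 82.4% as deposited, and with quantile normalization 1050 were higher and 1107 lower (48.7% higher). Of the 1327 genes higher in both as deposited, 1044 were still called so with median-of-ratios scaling and 918 with quantile normalization, and of the 284 lower in both, 276 were with each. Of the joint calls, 57.7% were higher as deposited, 50.8% with median-of-ratios scaling and 46.3% with quantile normalization, and of the direct differences 27.9%, 50.9% and 46.8% were higher in miR155_KO. The excess of shared rises over shared falls was therefore tied to the deposited scale. Each of the 24 genes named for size kept its direction and its calls in both mutants under both scalings. They were chosen for large joint changes, calls in each mutant and no overlap with WT, so this was largely set by the choice. It says little about the other shared genes.

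**Figure D5:**
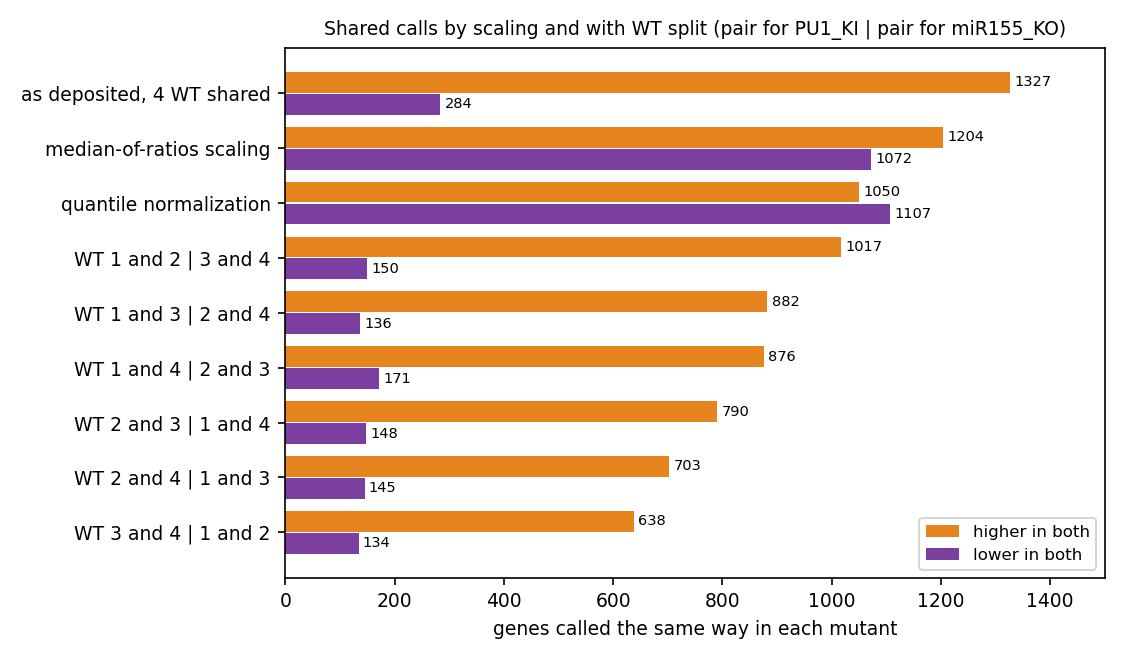
Number of genes called higher (upper bar) and lower (lower bar) in each of the mutants, with all 4 WT libraries under 3 scalings and with WT split between the mutants in the 6 possible ways. The counts with all WT libraries are 1327 and 284 as deposited and 1204 and 1072 with median-of-ratios scaling; the split counts run from 638 to 1017 higher and from 134 to 171 lower.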

How the data were processed

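The authors deposited RPKM values, read counts scaled to gene length and library depth, in a single table of 22295 rows for 22232 genes. Per the submitters' processing notes, Trim Galore, TopHat and the build NCBIM37 were used; their versions, the counting and the strand setting were not given in the sources used here. RPKM keeps no total count, so depth was estimated from the step between low values: with it, 67.2% to 72.8% of 250 low values per library lay within 0.01 of whole reads, and no count model was run. log2(RPKM + 0.5) was fitted in limma 3.58.1 (R 4.3.3) with 1 mean per genotype over all 14 libraries and an intensity trend, two-sided, adjusted over 9627 rows, 17 of which repeat a gene. Adjusted p-values are limma's unless the permutation test is named. The scripts were tested on simulated data. Figures and sequence searches used Python 3.11.15.

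The members and lists were chosen with earlier results of these data known. Genes were described by rule: the 12 largest joint rises and 12 largest falls called in each mutant without overlap with WT; 4 opposite genes each way; the 3 with the smallest joint adjusted p of each list with at least 5 tested; fixed regulators; and 5 genes each with the highest, lowest and closest ratio among 150 without overlap. Other list members were chosen after their values were seen. A few genes covered by the rule or the lists are not reported here. Alternatives were other scalings, filters, pseudocounts, WT splits, a replicate block and leaving out libraries.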

Additional observations from a re-analysis of the deposited data

Results flagged for a closer look

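Within each genotype, the described genes were checked for a library whose gap to the nearest other exceeded the 95% critical value of Dixon's ratio. Of 156 such groups over 52 genes, 5 had one, and chance alone marks about 1 in 20. Ccl22 was at 429 RPKM in miR155_KO replicate 5, with the other 4 libraries at 264 to 301. Irg1 was at 6.80 RPKM in the same library, with the others at 3.98 to 4.77, and Tnf at 2.22 RPKM, with the others at 1.08 to 1.31. 1110032F04Rik was at 5.19 RPKM in WT replicate 1, with the others at 6.48 to 6.55. Sema4a was at 8.26 RPKM in PU1_KI replicate 1, with the others at 9.37 to 9.79. WT replicate 1 and miR155_KO replicate 5 are also the libraries apart from their groups on the first principal component. Without both of them, Ccl22, Irg1 and Tnf kept their joint calls and their calls in each mutant.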

How the results depend on the processing

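The direction and calls of the 24 genes with the largest shared changes held under every alternative run for single genes, except that A530088E08Rik was called in both mutants in 4 of the 6 WT splits. These genes were chosen for size and calls in the same libraries, which largely set this outcome. Of 5445 recomputed values of described genes, 5418 kept their direction and side of the threshold, 11 lost a call, 14 gained one and 2 reversed: Gypc, with no called difference between the mutants as deposited, was higher in miR155_KO by 0.12 with median-of-ratios scaling and 0.18 with quantile normalization. Pax5 lost its joint limma call without WT replicates 1 or 4, PU1_KI replicates 3, 4 or 5, or miR155_KO replicates 1, 2 or 3 (adjusted p 0.0502 to 0.184). In the exact permutation test Pax5 passed with median-of-ratios scaling (0.13, adjusted p = 0.033) and quantile normalization (0.17, adjusted p = 0.0048), Bach2 did not pass without WT replicate 1 (0.22, adjusted p = 0.0559), nor Prdm1 without WT replicate 3 (-0.35, adjusted p = 0.0559). Leaving out 1 library at a time, the log2 difference of Bach2 was 0.21 to 0.27 and of Prdm1 -0.42 to -0.34.

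Counts moved more. With median-of-ratios scaling, 1072 genes were lower in both, 162 were lower in PU1_KI and higher in miR155_KO, and 3061 were higher and 2953 lower in miR155_KO than in PU1_KI. With quantile normalization these were 1107, 168 and 2831 (higher), and 2968 were lower jointly. With no filter 2822 were higher in miR155_KO than in PU1_KI. With a filter of 5 RPKM, which tests fewer genes, 1579 were higher jointly, 847 higher in both, 20 lower in PU1_KI and higher in miR155_KO, and 869 higher in miR155_KO than in PU1_KI. Fitted as 1 group of 10, which puts the difference between mutants into the error, 1578 genes were higher and 474 lower. At 1.5-fold in each mutant 129 and 35 remained.

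With WT split, in the order of the pairs set against PU1_KI (1 and 2, 1 and 3, 1 and 4, 2 and 3, 2 and 4, 3 and 4), the genes higher in both were 1017, 882, 876, 790, 703 and 638, those lower in both 150, 136, 171, 148, 145 and 134, those higher in PU1_KI and lower in miR155_KO 338, 234, 311, 135, 106 and 77, and those in the other direction 16, 20, 20, 22, 17 and 15. Leaving out 1 library at a time gave 2231 to 2815 joint rises and 1472 to 2261 joint falls, 967 (without WT replicate 1) to 1515 (without PU1_KI replicate 1) genes higher and 208 to 371 lower in both, 212 to 381 (without PU1_KI replicate 1) higher in PU1_KI and lower in miR155_KO, and 24 (without WT replicate 4) to 46 in the other direction.

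Deviations of the 13 same-numbered pairs correlated from -0.39 to 0.47, with 7 over 0.1, and those of other pairs from -0.56 to 0.57, so the replicate numbers were not taken to pair the libraries; a shared source of some pairs was not tested. With the replicate block 2672 genes were higher and 2263 lower jointly, 1390 higher and 397 lower in both, 346 and 46 opposite, 1811 higher and 4650 lower in miR155_KO than in PU1_KI, and the median ratio was 2.37, with 86.7% of the genes behind it differing between the mutants. It was not run for the permutation tests. At these depths 1 RPKM on a 2 kb gene is 62.9 to 104.9 reads, so counting error is small above the filter, while genes under 1 RPKM, such as Erg in the mutants, rest on few reads.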

Other observations

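With RPKM as deposited, some lists had joint calls that came almost wholly from miR155_KO. Of all tested genes, 27.5% were higher and 20.2% lower jointly, 23.7% higher and 4.03% lower in PU1_KI, and 27.2% higher and 35.3% lower in miR155_KO. Of 13 tested transcripts encoded by the mitochondrial genome, 8 were called higher jointly and 9 in miR155_KO, while in PU1_KI the calls were 3 that were lower. Under median-of-ratios scaling 8 were lower in PU1_KI, and 6 were lower there and higher in miR155_KO. With quantile normalization these were 7 and 6. Of all tested genes, 162 and 168 were lower in PU1_KI and higher in miR155_KO under these 2 scalings. mt-Nd3, a subunit of respiratory complex I, held 418 ± 24.1 RPKM in WT, against 377 ± 45.1 in PU1_KI and 1758 ± 225 in miR155_KO. Of 26 genes of cholesterol and lipid synthesis 11 were lower jointly, 20 were lower in miR155_KO and 7 were higher in PU1_KI. An example is Insig1, a sensor of sterols (55.3 ± 2.96, 56.0 ± 2.59 and 34.9 ± 2.47 RPKM). Of 30 ribosomal protein genes 18 were lower in miR155_KO. The 6 ribosomal protein genes lower jointly and the 7 cholesterol genes higher in PU1_KI are shares close to those of all tested genes.

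Of 31 tested genes of B cell identity, 3 were higher and 3 lower in both mutants, beside 13.8% and 2.95% of all tested genes. Ms4a1, which encodes CD20, fell from 144 ± 9.49 to 119 ± 6.14 and 84.9 ± 4.97 RPKM, and Ets1, which restrains plasma cell formation, from 20.9 ± 0.779 to 17.3 ± 1.55 and 15.8 ± 1.15. Of 26 genes of class switching 3 were higher and 1, the end-joining gene Xrcc5, lower in both (4.26 ± 0.416, 2.67 ± 0.357 and 2.38 ± 0.226 RPKM), shares close to those of all tested genes. Under median-of-ratios scaling 1 was higher and 7 lower in both, and with quantile normalization 1 and 6. Of all 9627 tested genes, 1204 were higher and 1072 lower in both under the first scaling, and 1050 and 1107 under the second.

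A530088E08Rik and Slc26a10, both lower in each mutant, had replicates 1 and 2 above replicates 3 to 5 in PU1_KI and in miR155_KO alike. A530088E08Rik held 2.24, 1.91, 0.665, 1.04 and 0.848 RPKM in PU1_KI and 1.76, 1.95, 0.674, 0.808 and 0.795 in miR155_KO, against 2.40, 3.68, 3.22 and 2.42 in WT. Slc26a10 held 0.721, 0.667, 0.171, 0.271 and 0.246 RPKM in PU1_KI and 0.634, 0.654, 0.289, 0.211 and 0.160 in miR155_KO, against 1.04, 1.11, 1.03 and 1.02 in WT, where no such step was seen. This pattern was noticed in the values and was not tested.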
